A study of Mus musculus with 8 samples.

Results

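The data described here are the transcript levels of 9 enzymes that break down tryptophan, tyrosine and phenylalanine: Tdo2, Kmo, Kynu, Haao, Acmsd, Aldh8a1, Tat, Hpd and Fah. They were picked by gene name, not by any measured value, from the 49661 gene names with a probe on the first array slide and the 34761 on the second. All 9 had a probe on both slides, and 6 of them (Tdo2, Kynu, Aldh8a1, Tat, Hpd and Fah) had a probe of identical sequence on both, out of 13227 genes with such a probe. The study profiled mouse hepatocytes that arise from transplanted bone marrow (BM) cells, on 8 single-colour Agilent arrays, 2 for each of 4 groups. The donor cells were lineage-negative (Lin-) BM cells, that is, marrow depleted of cells carrying mature blood lineage antigens, from female C57Bl6/J-Tg(UBCGFP)30Scha/J mice aged 6 to 8 weeks, which express eGFP from the ubiquitin C promoter. The recipients were male hemophilia A mice carrying the F8tm1Kaz allele of the coagulation factor VIII gene on a mixed strain background, unlike the donors, of the same age, with acute liver injury by acetaminophen, and received the cells within 30 h of the injury. BM-derived hepatocytes were isolated 1 month (replicates 1 and 2) or 5 months (replicates 1 and 3) after transplantation, by 2-step collagenase perfusion, a low-speed spin and sorting on eGFP. The controls were Lin- BM cells (replicates 3 and 4) and primary hepatocytes (replicates 2 and 4), whose mouse strain, sex and age are not given in the sources used here. Cells of 3 mice were pooled for each experiment, so the spread between the 2 arrays of a group is not a spread between single animals, and every p-value below measures only the spread between arrays.

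In the liver, tryptophan is opened by the Tdo2 dioxygenase and passed down the kynurenine pathway, either to full oxidation or to the precursor of NAD. Phenylalanine is broken down by way of tyrosine, and tyrosine is degraded through a transaminase, a dioxygenase and further cytosolic steps that end in fumarate and acetoacetate. Both routes are classic functions of the hepatocyte, and losses of Hpd or Fah are known causes of inherited tyrosinemia.

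The genes lie on 8 chromosomes of the mouse genome (GRCm38, RefSeq): Acmsd at chr1:127729413-127767564, Kmo at chr1:175632193-175660853, Kynu at chr2:43555258-43683048, Tdo2 at chr3:81958412-81975728, Hpd at chr5:123171807-123182723, Fah at chr7:84585159-84605942, Tat at chr8:109986078-109999804, Aldh8a1 at chr10:21377300-21396578 and Haao at chr17:83831348-83848981. What an array reports for each is the brightness of a 60-base probe, and the probes behind the most contrasting results are shown here, 5′ to 3′, with no letter marked. The first 3 stood on both slides and carry the comparisons between them. The second Tdo2 probe stood only on the first slide. The Haao and Acmsd probes of the first slide differ from those of the second, so the levels of these genes could be compared only within a slide. The annotation of the second slide places the shared Tdo2 probe at chr3:81767918-81770928, the Hpd probe at chr5:123622237-123624360 and the Fah probe at chr7:91740916-91741732 of the mm9 build, all on the minus strand. These placements span 3011, 2124 and 817 bases, so each probe aligned across an intron of its gene.
Tdo2 shared probe: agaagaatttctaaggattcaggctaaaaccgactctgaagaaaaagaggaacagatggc
Hpd shared probe: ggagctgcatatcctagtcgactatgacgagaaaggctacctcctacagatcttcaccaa
Fah shared probe: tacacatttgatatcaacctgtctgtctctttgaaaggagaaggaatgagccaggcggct
Tdo2 probe of the first slide only: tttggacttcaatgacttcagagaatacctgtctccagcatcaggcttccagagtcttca
Haao probe of the first slide: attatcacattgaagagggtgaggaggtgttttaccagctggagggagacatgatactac
Acmsd probe of the first slide: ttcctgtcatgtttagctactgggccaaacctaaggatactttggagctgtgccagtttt

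The GC content of the members' probes ran from 35.0% to 55.0%.

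Promoter windows of 250 bases before the annotated start were on hand for 8 of the 9 genes, all but Kynu (RefSeq, GRCm38.p6). Those of Tdo2, Tat, Hpd and Aldh8a1 are printed because these 4 genes stand for both routes and for the strongest contrasts reported below. For Tat and Haao the start used lies inside the full span of the gene given above. The windows are written in the gene's direction and end at the base before the start. Capitals mark matches, on either strand, to 1 of 7 short motifs. The general promoter elements searched were the TATA box as TATAAA, the inverted or direct CCAAT box, and the GC box, bound by Sp factors, as GGGCGG. For factors that drive liver genes, the HNF1 half-site was searched as GTTAAT, the core of the HNF4A site as CAAAGTC, and the core of the FOXA site as TGTTTGC. The half-site of the glucocorticoid receptor was searched as TGTTCT. No 2 matches in these windows overlapped.
Tdo2, chr3:81975729-81975978, minus strand: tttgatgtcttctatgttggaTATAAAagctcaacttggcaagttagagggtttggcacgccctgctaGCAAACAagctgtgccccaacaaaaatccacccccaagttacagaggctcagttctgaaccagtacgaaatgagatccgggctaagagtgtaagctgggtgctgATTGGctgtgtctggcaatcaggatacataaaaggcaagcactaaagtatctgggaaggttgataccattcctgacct
Tat, chr8:109990186-109990435, plus strand: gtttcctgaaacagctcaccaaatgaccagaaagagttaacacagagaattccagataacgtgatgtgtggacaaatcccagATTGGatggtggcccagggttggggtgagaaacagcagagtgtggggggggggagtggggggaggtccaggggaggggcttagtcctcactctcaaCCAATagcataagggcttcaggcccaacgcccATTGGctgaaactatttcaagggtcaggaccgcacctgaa
Hpd, chr5:123182724-123182973, minus strand: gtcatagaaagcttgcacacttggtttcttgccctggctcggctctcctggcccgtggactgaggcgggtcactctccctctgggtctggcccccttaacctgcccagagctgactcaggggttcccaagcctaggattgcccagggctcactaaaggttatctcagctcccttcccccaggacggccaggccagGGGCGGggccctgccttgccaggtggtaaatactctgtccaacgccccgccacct
Aldh8a1, chr10:21377050-21377299, plus strand: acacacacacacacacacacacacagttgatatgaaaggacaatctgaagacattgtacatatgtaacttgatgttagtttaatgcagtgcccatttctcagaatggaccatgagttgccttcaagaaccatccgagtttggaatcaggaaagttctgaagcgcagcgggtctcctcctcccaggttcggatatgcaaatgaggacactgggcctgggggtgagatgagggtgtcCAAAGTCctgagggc

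In the Tdo2 window, TATAAA stood 229 to 224 bases before the start, the FOXA core 182 to 176 and CCAAT 78 to 74, the latter 2 on the opposite strand. The Tat window held CCAAT 3 times, the nearest 40 to 36 bases before the start. Hpd held a GC box 55 to 50 bases before the start, and Aldh8a1 an HNF4A core 15 to 9 bases before it. Among the windows not printed, Kmo held the HNF4A core, Acmsd the FOXA core, Haao the HNF1 half-site and the glucocorticoid receptor half-site, and Fah the GC box at 3 places. Over all 32851 promoter windows, the share that held the motif was 12.4% for TATAAA, 33.8% for CCAAT, 32.7% for GGGCGG, 6.43% for GTTAAT, 3.84% for CAAAGTC, 4.3% for TGTTTGC and 16.1% for TGTTCT. No motif was found in more than 2 of the 8 windows. GC content was 46.4% for Tdo2, 53.6% for Tat, 62.8% for Hpd and 48.0% for Aldh8a1, beside a median of 52.4% over all windows. A match is only a match of letters, and no binding was measured here.

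Levels are given below as log2 signal, the log2 of the background-corrected brightness minus the upper quartile of the same array, so that 0 is a probe as bright as that quartile. The share of spots well above background ran from 47.7% to 58.6% over the arrays, with 0 saturated spots. Lin- BM cells and 1-month BM-derived hepatocytes were on 1 slide, and primary and 5-month BM-derived hepatocytes on the other, with another array design. Slide, design and group therefore change together, and in any comparison across slides they cannot be told apart. Hepatocyte markers were at their label: of 7 such genes with a probe (Alb, Apoa1, Apob, Ttr, Fgb, Ahsg and Hnf4a), all 7 were well above background on the 6 hepatocyte arrays and 2 on the Lin- BM arrays, where their summed signal was 0.300 to 0.323 times the upper quartile against 3310 to 3540 in 1-month BM-derived hepatocytes. The markers of leukocytes ran the other way, with sums of 271 to 398 in Lin- BM cells and 1.14 to 3.66 in 1-month BM-derived hepatocytes. In such bulk samples, fewer cells of a type and less RNA per cell cannot be told apart.

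In 1-month BM-derived hepatocytes, all 8 of the enzymes that could be tested were called higher than in Lin- BM cells (n = 2 arrays per group). For 7 of them the change ran from 3.78 for Kmo to 11.38 for Tat on the log2 scale. Hpd has only a lower bound and was at least 3240-fold higher. Each gene rests on its own probe, and those of Kmo and Haao were the dimmest of the 8 on the 1-month arrays. The order of the changes therefore does not rank the genes or the routes. Acmsd was near or below background in both groups and was not tested. Of all 28429 genes tested on this slide, 28.9% were called higher, a call being an adjusted p below 0.05 (limma, Benjamini-Hochberg) and a change beyond 0.6 on the log2 scale. The median change of the 8 enzymes was 8.98, also with Hpd, for which there is only a lower bound, set at that bound. The median of all genes was 0.07. Tdo2, Haao and Hpd passed the filter on dim probes through the 1-month arrays only, so they had to differ. Kmo, Kynu, Aldh8a1, Tat and Fah were well above background on both Lin- arrays too, and their changes ran from 3.78 to 11.38.

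Tdo2, the first and rate-limiting enzyme of the kynurenine pathway, read -5.42 and -3.63 in Lin- BM cells and 4.28 and 4.66 in 1-month BM-derived hepatocytes by its brighter probe. The groups did not overlap, and 1 of the 2 Lin- arrays was not well above background. The change was 9.0 (SE 0.64, adjusted p = 0.000718, limma), and it was 8.10 without Lin- replicate 3 and 9.89 without Lin- replicate 4. The other probe, the one shared between the slides, read -6.73 and -6.72 in Lin- BM cells, not well above background on either array, and 3.98 and 4.85 in 1-month BM-derived hepatocytes. By that probe Tdo2 was at least 481-fold higher in the latter (adjusted p = 9.13e-05, limma).

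Kmo, which hydroxylates kynurenine, read -2.22 and -1.32 in Lin- BM cells and 1.87 and 2.15 in 1-month BM-derived hepatocytes, a change of 3.78 (SE 0.39, adjusted p = 0.00199, limma), or 13.8-fold. Kynu, the kynureninase that cleaves off alanine, read -4.12 and -3.61 against 2.98 and 3.40. Its change was 7.06 (SE 0.33, adjusted p = 0.000253, limma), or 133-fold, with both arrays of 1 group far from those of the other. Haao, the dioxygenase that acts on hydroxyanthranilate, read -3.92 and -4.66 against 1.13 and 0.47. It rose by 5.09 (SE 0.40, adjusted p = 0.000977, limma), and the lower of its Lin- values was not well above background.

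After Haao the pathway branches. Acmsd, the decarboxylase that turns the intermediate away from NAD synthesis and towards oxidation, read -6.20 and -5.02 in Lin- BM cells and -5.34 and -3.03 in 1-month BM-derived hepatocytes, and only the 1-month replicate 2 was well above background. It was thus detected on 1 of the 4 arrays, and no change can be given. Aldh8a1, the dehydrogenase that acts in the oxidation branch after Acmsd, read -3.04 and -2.73 against 6.65 and 6.67. That is a change of 9.55 (SE 0.27, adjusted p = 7.46e-05, limma), or 751-fold, with 1-month arrays that differed by 0.02. Signals of different probes cannot be set against each other, so no order of the levels of Acmsd and Aldh8a1 is given.

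Tat, the aminotransferase that begins tyrosine breakdown, was among the members that were well above background in both groups. It read -3.63 and -3.94 in Lin- BM cells and 7.45 and 7.74 in 1-month BM-derived hepatocytes, a change of 11.38 (SE 0.28, adjusted p = 6.56e-05, limma), or 2670-fold. Hpd, the dioxygenase of the next step, read -6.25 and -4.50, not well above background on either Lin- array, against 7.03 and 7.35. It was at least 3240-fold higher in 1-month BM-derived hepatocytes (adjusted p = 0.000287, limma). Its fitted change of 12.56 became 11.69 without Lin- replicate 3 and 13.44 without Lin- replicate 4, a difference that lies in signals below background. Fah, the hydrolase that ends the route, read -2.83 and -3.82 against 5.86 and 5.43, a change of 8.97 (SE 0.43, adjusted p = 0.000265, limma), or 501-fold.

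**Figure D1:**
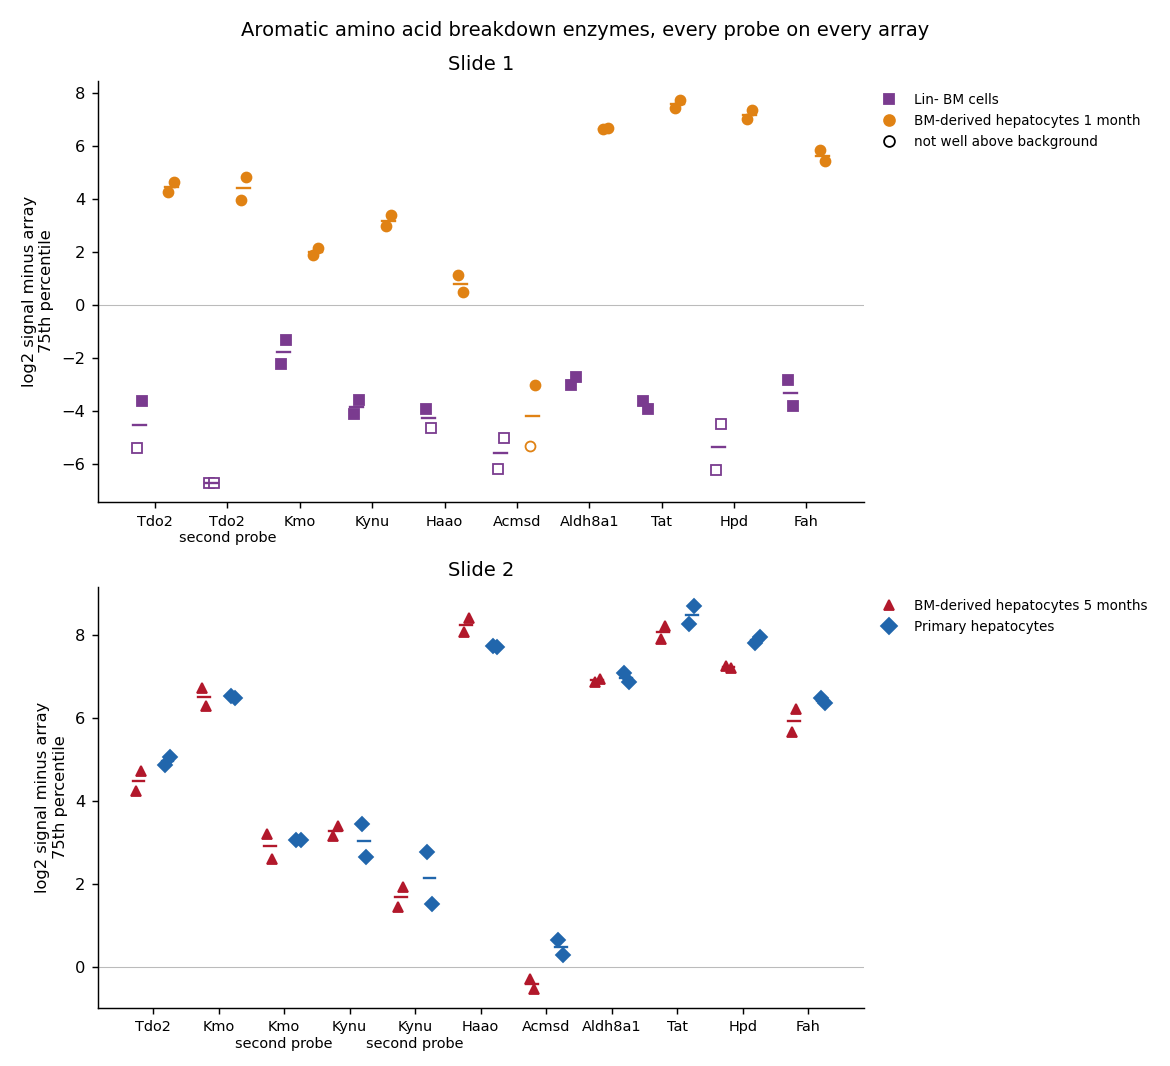
Log2 signal of the 9 enzymes on each array, relative to the upper quartile of that array, in 1 panel per slide; every point is 1 array, short lines are group means and open symbols are not well above background. On the first slide the 1-month values of 8 genes lie above both Lin- values, with Acmsd the exception. Of all genes tested on that slide, 28.9% were called higher, and the share without overlap was not counted. On the second slide the points of primary and 5-month BM-derived hepatocytes lie close together.

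The size of these changes depends on how the background is handled, since the Lin- signals were near it. With a model-based background correction (normexp) in place of the scanner software's, the change was 5.62 for Tdo2, 2.58 for Kmo, 4.27 for Kynu, 2.37 for Haao, 7.48 for Aldh8a1, 8.41 for Tat, 8.39 for Hpd and 6.53 for Fah, and all 8 remained called. Haao and not Kmo then had the lowest value of the 8, and Tat and not Hpd the highest. The methods' t-test after Benjamini-Hochberg adjustment called 5 of the 8, without Tdo2 (adjusted p = 0.0535), Kmo (adjusted p = 0.0613) and Haao (adjusted p = 0.0522). Of all 28429 genes, that test called 2827 higher. For a single gene, an exact permutation test of 2 against 2 arrays cannot give a two-sided p below 0.33.

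The other genes of the same pathways moved in the same direction for the most part. Some, Maob, Aadat and Hgd among them, passed the filter on dim probes through the 1-month arrays only. These had to differ, and the counts and medians below include them. Of 17 listed tryptophan and kynurenine genes, 12 were tested, 11 rose and 1 fell, with a median change of 4.54. Of all 28429 genes tested on this slide, 8206 were called higher and 7513 lower, with a median of 0.07. Maob, a monoamine oxidase, rose by 10.14, and Aadat, an aminotransferase that forms kynurenic acid, was at least 825-fold higher (adjusted p = 7.02e-05, limma). Qprt, which makes the NAD precursor from quinolinate, rose by 5.79, and Ddc, the aromatic amino acid decarboxylase, by 5.38. Gcdh, the glutaryl-CoA dehydrogenase, rose by 4.72. Increases of 4.56, 4.53 and 3.94 were measured for Kyat3, Afmid and Kyat1, which act on kynurenine or make it. Ido2, a relative in function of Tdo2, rose by 3.48, while Nadsyn1, the last enzyme of NAD synthesis, rose by 1.99 and Maoa by 1.24. Nmnat3, an adenylyltransferase of NAD synthesis, fell by 1.85 (adjusted p = 0.00946, limma). Ido1, Nmnat1, Nmnat2, Tph1 and Tph2 did not pass the filter, and of these Ido1 was well above background on the 1-month replicate 2 alone.

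Of 11 listed phenylalanine and tyrosine genes, 10 were tested, 8 rose and none fell, with a median change of 3.69. Of all genes tested on this slide, 28.9% were called higher. Hgd, the dioxygenase between Hpd and Fah, was at least 416-fold higher in 1-month BM-derived hepatocytes (adjusted p = 8.55e-05, limma). Gstz1, which acts just before Fah, rose by 4.72. Genes for the tetrahydrobiopterin cofactor also rose: Gchfr by 9.11, Pcbd1 by 7.31, Gch1 by 3.97, Qdpr by 3.41, Spr by 2.08 and Pcbd2 by 1.20. Pts, of the same cofactor synthesis, changed by -0.05 (adjusted p = 0.865, limma) and Il4i1, an amino acid oxidase of immune cells, by 0.19 (adjusted p = 0.746, limma), so neither was called. Th, the tyrosine hydroxylase of catecholamine synthesis, was not tested. The smallest of these calls rested on single arrays: Maoa (1.00) and Pcbd2 (0.86) were not called without Lin- replicate 3, nor without either 1-month array, and Nmnat3 (adjusted p = 0.0515 and 0.0516, limma) was not called without either 1-month array.

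The carriers of these amino acids did not follow as a set. Of 6 aromatic amino acid transporter genes, none was called higher and 4 fell, with a median of -2.28, or -1.73 with Slc43a2 set at its bound. The highest change among them was 1.61 and was not called. Of all 28429 genes tested on this slide, 8206 were called higher and 7513 lower. Slc7a8 fell by 3.53, Slc43a1 by 3.50 and Slc7a5 by 2.49, and the latter pair were not called without 1-month replicate 2 (adjusted p = 0.0749 and 0.0634, limma). Slc43a2 was at least 1.97-fold lower, a call that was lost without 1-month replicate 1 or either Lin- array, and its change was 0.25 with normexp (adjusted p = 0.154, limma). Of 46 other amino acid breakdown enzymes, 43 rose and 1 fell, with a median of 4.81. The largest of these were Agxt, at least 9650-fold higher, Mat1a, at least 3160-fold, and Bhmt, at least 1960-fold, and Sdsl fell by 2.54. Of the 46, 10 had only a bound, Agxt, Mat1a and Bhmt among them, and had to differ. Tat is a textbook target of glucocorticoids, and of 8 glucocorticoid response genes 3 rose and 2 fell. Their median was 0.14, beside 0.07 for all genes. Pck1, of glucose production, rose by 12.47 and Fkbp5, which binds the receptor complex, fell by 3.35. The calls of Sgk1 (2.22), Zbtb16 (1.18) and Per1 (-3.89) were lost when single arrays were left out: either 1-month array or Lin- replicate 4 for Sgk1, any of the 4 arrays for Zbtb16, and either Lin- array for Per1.

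**Figure D2:**
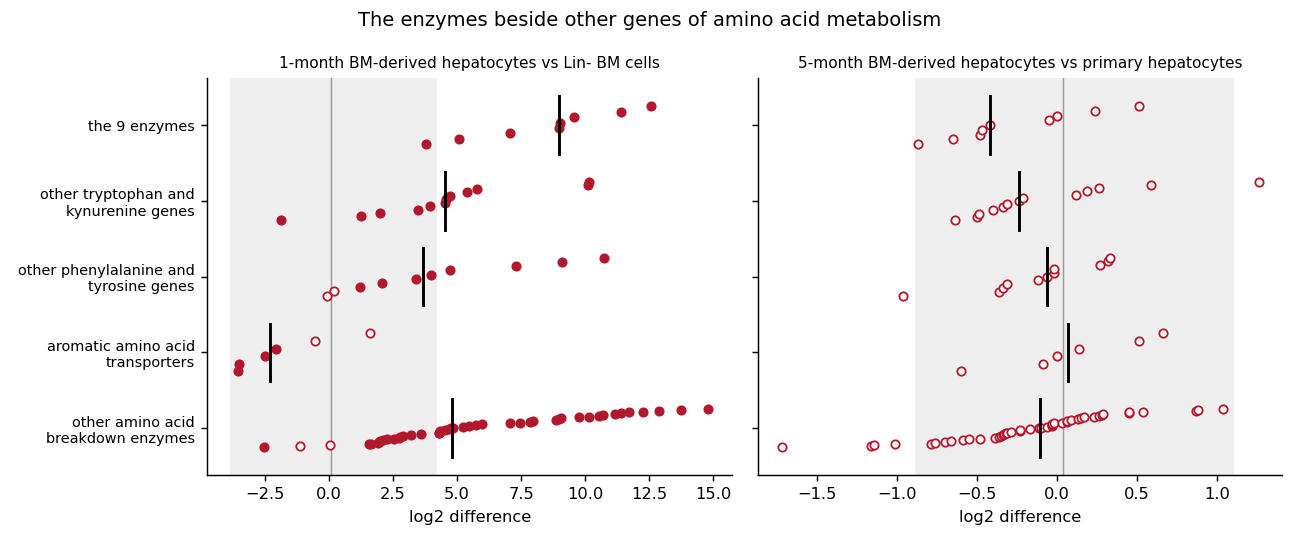
Log2 change of each tested gene by list, for 1-month BM-derived hepatocytes against Lin- BM cells and for 5-month BM-derived against primary hepatocytes; each point is a gene, filled where called, the black bar is the median of the list, grey shading spans the 5th to 95th percentile of all genes, the grey line is their median, and genes with only a bound are drawn at the fitted change. In the first comparison that span runs from -3.80 to 4.18 and most members lie above it, and in the second no point is filled.

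Of the markers of other liver cells, those of sinusoidal endothelium mostly moved with the members on this slide. They summed to 53.9 and 57.6 times the upper quartile on the 1-month arrays and to 1.50 and 1.57 on the Lin- arrays. Of these 6 genes, 5 were called higher, beside 28.9% of all genes, and Pecam1 was lower by 2.52 (adjusted p = 0.00406, limma). The sums of Kupffer cell and stellate cell markers overlapped between the groups, while single genes of both lists were called in both directions. Markers of Kupffer cells and macrophages summed to 15.1 and 66.8 against 134 and 53.9, with 11 and 12 of 12 genes well above background on the 1-month arrays and 8 and 10 on the Lin- arrays. Of the 12, 5 were called higher and 2 lower. Clec4f was at least 73.2-fold higher, and Lyz2 fell by 3.63. Both lower calls, Cd68 and Lyz2, and higher calls, Vsig4 and Timd4 among them, were lost when single arrays were left out. Stellate cell markers summed to 22.1 and 30.9 against 22.5 and 167. Of 5 tested, 2 were called higher and 2 lower, with Lrat at least 12.2-fold higher and Col1a1 at least 361-fold lower. The call of Reln, the other higher gene, was lost when single arrays were left out. The sum over the 9 enzymes was 498 and 563 against 0.731 and 0.964. The part of the other cell types in the members' levels was not tested.

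Between 5-month BM-derived and primary hepatocytes, which shared the second slide, all 9 enzymes were well above background on all 4 arrays, and none was called different. The changes ran from -0.87 for Acmsd to 0.51 for Haao, with a median of -0.42 beside a median of 0.04 over all genes. Over all 19933 genes tested, 0.552% were called in either direction (73 higher, 37 lower), while 2818 had an unadjusted p below 0.05. That background rests on single arrays: the 110 called genes became 1397 without primary hepatocytes replicate 2, 1307 without primary hepatocytes replicate 4, and 0 without either 5-month array. None of the 9 enzymes was called in any of these. At an unadjusted p below 0.05, 2 of them (Acmsd and Hpd) passed in limma. Without adjustment, the methods' test called 1 of the 9, Hpd, and 1365 of all 19933 genes.

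In the kynurenine route, Tdo2 read 4.25 and 4.73 in 5-month BM-derived hepatocytes and 4.86 and 5.07 in primary hepatocytes. The change was -0.47 with a 95% interval from -1.26 to 0.31 (adjusted p = 0.501, limma), and the groups did not overlap. Kmo read 6.72 and 6.29 against 6.53 and 6.48 by its brighter probe, a change of 0.00 with an interval from -0.72 to 0.73. Its second probe read 3.21 and 2.60 against 3.05 and 3.06, and both probes had overlapping groups. Kynu, in the middle of the route, read 3.16 and 3.39 against 3.44 and 2.64 by the brighter probe and 1.44 and 1.92 against 2.76 and 1.52 by the second. The 2 probes gave changes of opposite sign, 0.24 (interval -0.78 to 1.26) and -0.46 (interval -1.91 to 0.98), and neither differed from 0 beyond the spread.

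Haao and Acmsd, on either side of the branch point, had the outermost changes of the 9. Haao read 8.08 and 8.41 in 5-month BM-derived hepatocytes against 7.75 and 7.72 in primary hepatocytes, a change of 0.51 (interval -0.16 to 1.18, adjusted p = 0.416, limma). Acmsd read -0.29 and -0.53 against 0.64 and 0.29, a change of -0.87 (interval -1.60 to -0.15, adjusted p = 0.263, limma). In both genes the groups did not overlap, Haao being higher and Acmsd lower at 5 months, and neither passed the adjustment over all genes. Aldh8a1 read 6.88 and 6.95 against 7.08 and 6.86, and with an interval from -0.68 to 0.57 it was within the spread between arrays.

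The 3 tyrosine enzymes all read lower at 5 months, with no overlap between the groups, as was the case for 22.7% of 19927 genes with a value on all 4 arrays. Tat read 7.91 and 8.23 against 8.27 and 8.71, a change of -0.42 (interval -1.22 to 0.38, adjusted p = 0.553, limma). Hpd read 7.27 and 7.21 against 7.81 and 7.95, a change of -0.65 (interval -1.25 to -0.04, adjusted p = 0.299, limma). Fah read 5.66 and 6.22 against 6.48 and 6.37, a change of -0.48 (interval -1.30 to 0.34, adjusted p = 0.512, limma). Counting Tdo2, Haao and Acmsd, the groups did not overlap for 6 of the 9 enzymes, 5 of them lower at 5 months, while 47.9% of all genes had groups that did not overlap in either direction. None of these 6 differences passed the test.

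**Figure D3:**
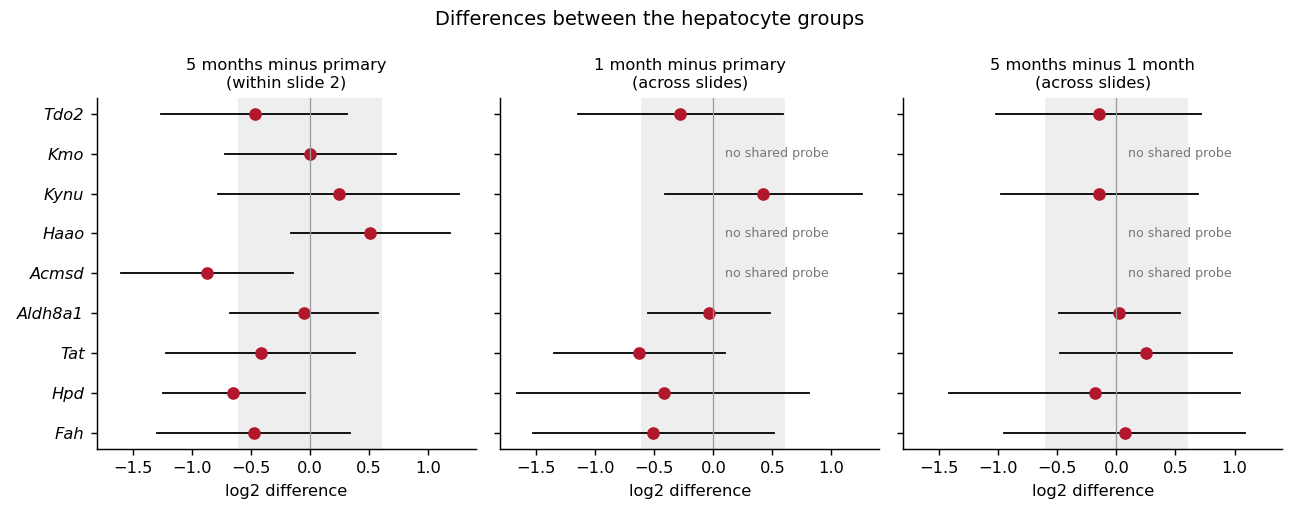
Log2 change of each enzyme between hepatocyte groups with its 95% interval, for 5-month BM-derived against primary hepatocytes (9 genes, same slide), 1-month BM-derived against primary and 5-month against 1-month BM-derived hepatocytes (6 genes with a shared probe); points are changes, horizontal lines are intervals, and the grey band marks a change within 0.6 in either direction. No gene shown was called, and the points run from -0.87 for Acmsd to 0.51 for Haao.

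The rest of the pathway gave no call either. Of 13 tested tryptophan and kynurenine genes the median change was -0.24, and of 11 phenylalanine and tyrosine genes it was -0.06. The largest changes in these lists were 1.26 for Ddc (adjusted p = 0.602, limma) and -0.96 for Hgd (adjusted p = 0.262, limma). Ido1, Tph1, Tph2 and Nmnat2 were not well above background on any of these 4 arrays. The median was 0.07 for 6 transporter genes, -0.10 for 46 other amino acid breakdown enzymes and 0.00 for 8 glucocorticoid response genes. None of these genes was called.

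On this slide the summed signal of the 9 enzymes was 967 and 1100 times the upper quartile in 5-month BM-derived hepatocytes and 1110 and 1210 in primary hepatocytes. Hepatocyte markers summed to 7570 and 8050 against 6670 and 7040, which is the opposite order. Kupffer cell and macrophage markers summed to 138 and 137 against 37.0 and 78.6, with 12 of 12 well above background on all 4 arrays. Neutrophil and myeloid precursor markers summed to 72.9 and 13.3 against 10.4 and 22.6, and leukocyte markers to 6.69 and 4.68 against 2.29 and 4.34. None of the genes of these lists was called, and their part in the members' levels was not tested.

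Across slides, 6 of the enzymes could be followed through all 4 groups by probes of identical sequence, with the upper quartile taken over the 13991 shared sequences. The values on this scale are lower than those above by about the same amount for every gene, because the shared probes are brighter as a set. Lin- BM cells were lowest for all 6, and the 3 hepatocyte groups lay within 0.63 of each other in every gene. The 4 comparisons across slides share groups, so they are not independent of each other.

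Tdo2 read -8.10 and -8.24 in Lin- BM cells, 2.54 and 3.45 in 1-month BM-derived hepatocytes, 2.63 and 3.06 in 5-month BM-derived hepatocytes, and 3.16 and 3.40 in primary hepatocytes. Both Lin- values were not well above background. The means of the other groups came in the order primary (3.28 ± 0.17, SD, n = 2), 1-month (2.99 ± 0.65) and 5-month (2.84 ± 0.30), and neighbours in this order did not differ beyond their spread. Kynu, in contrast, had its highest mean in 1-month BM-derived hepatocytes. It read -5.49 and -5.14 in Lin- BM cells, 1.53 and 2.01 at 1 month, 1.54 and 1.72 at 5 months, and 1.73 and 0.97 in primary hepatocytes, so that the 3 hepatocyte groups overlapped. Aldh8a1 was the steadiest, with -4.42 and -4.26 in Lin- BM cells, 5.21 and 5.28 at 1 month, 5.25 and 5.29 at 5 months, and 5.37 and 5.19 in primary hepatocytes. Its 3 hepatocyte means were 5.24, 5.27 and 5.28.

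Tat read -5.01 and -5.46 in Lin- BM cells, 6.01 and 6.34 at 1 month, 6.29 and 6.56 at 5 months, and 6.57 and 7.04 in primary hepatocytes. Its means thus came in the order 1-month (6.18), 5-month (6.42) and primary (6.80), with 1-month and 5-month values overlapping and the higher 5-month value just under the lower primary one. Hpd read -7.62 and -6.02 in Lin- BM cells, neither well above background, 5.59 and 5.96 at 1 month, 5.64 and 5.54 at 5 months, and 6.10 and 6.28 in primary hepatocytes. The BM-derived groups overlapped each other and lay below the primary arrays. Fah had the same arrangement, with -4.20 and -5.34 in Lin- BM cells, 4.41 and 4.04 at 1 month, 4.03 and 4.55 at 5 months, and 4.77 and 4.70 in primary hepatocytes.

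**Figure D4:**
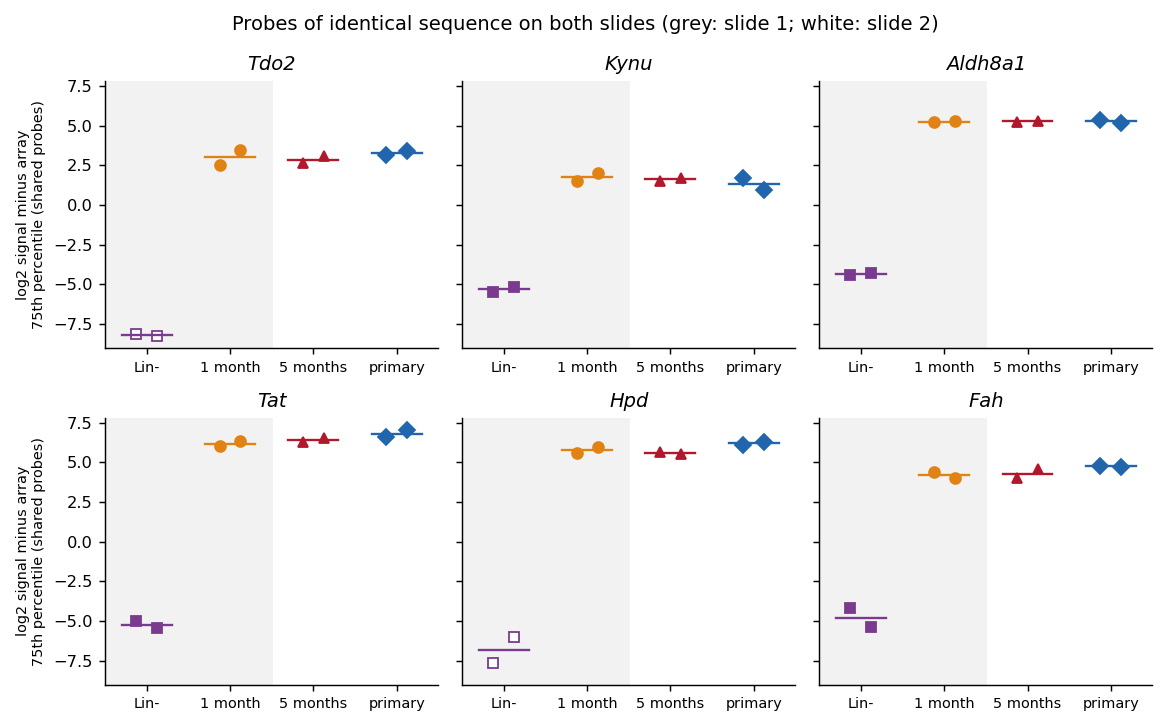
Log2 signal of the 6 enzymes with a probe of identical sequence on both slides, relative to the upper quartile of the shared probes, in all 4 groups; every point is 1 array, lines are group means, open symbols are not well above background, and grey shading marks the first slide. In each panel the Lin- points lie far below the other 6, which span at most 1.04.

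Against Lin- BM cells, all 6 enzymes were called higher in primary hepatocytes, where 29.3% of 9223 genes were, and in 5-month BM-derived hepatocytes, where 29.3% were too. Tdo2 and Hpd passed the filter through the hepatocyte arrays only, so they had to differ, while Kynu, Aldh8a1, Tat and Fah were well above background on both Lin- arrays. In primary hepatocytes the changes were 6.66 for Kynu, 9.51 for Fah, 9.62 for Aldh8a1 and 12.04 for Tat, and Tdo2 was at least 972-fold and Hpd at least 6160-fold higher. In 5-month BM-derived hepatocytes the changes were 6.94 for Kynu, 9.07 for Fah, 9.60 for Aldh8a1 and 11.66 for Tat, and Tdo2 was at least 720-fold and Hpd at least 4060-fold higher. The largest adjusted p among these was 8.98e-06 (limma), for Kynu in primary hepatocytes. The median change was 10.53 and 10.31, or 9.77 and 9.55 with Tdo2 and Hpd set at their bounds, beside all-gene medians of -0.29 and -0.30. Under normexp the 2 ranges were 4.28 (Kynu) to 9.34 (Tat) and 4.50 (Kynu) to 8.94 (Tat), again with all 6 called. The fitted change of Hpd moved from 13.01 to 12.22 without Lin- replicate 3 and to 13.81 without Lin- replicate 4 in primary hepatocytes, and from 12.41 to 11.61 and 13.21 in 5-month BM-derived hepatocytes.

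The pathway genes with shared probes did likewise. Some, such as Maob, Ddc and Hgd, passed the filter through the hepatocyte arrays only, so they had to differ. In primary and in 5-month BM-derived hepatocytes, 5 of 5 tryptophan and kynurenine genes and 6 of 7 phenylalanine and tyrosine genes exceeded their level in Lin- BM cells. The exception was Pts, at -0.55 in primary hepatocytes (adjusted p = 0.0864, limma) and called lower, at -0.84, in 5-month BM-derived hepatocytes, a call that was lost without either 5-month array or Lin- replicate 3 and at -0.64 with the quartile taken over all probes. Of the other amino acid breakdown enzymes, 33 of 34 were higher in each, with medians of 5.86 and 5.36, where 29.3% of 9223 genes were higher. Of the 34, 7 and 6 had only a bound and had to differ. Of 4 transporter genes, 2 were lower in each, Slc7a5 and Slc7a8. Slc16a10 was called higher in 5-month BM-derived hepatocytes alone (1.96, adjusted p = 0.0443, limma), a call lost when single arrays were left out.

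Between 1-month BM-derived and primary hepatocytes, none of the 6 enzymes was called, while 16.8% of 9223 genes were. The changes ran from -0.63 for Tat to 0.42 for Kynu, with a median of -0.35 beside 0.18 for all genes. Tat had the smallest p (0.0713, adjusted p = 0.191, limma) and an interval from -1.35 to 0.10, and with normexp it was called at -0.71 (adjusted p = 0.0450, limma). With normexp, 2434 of all 9223 genes were called. Tat, Hpd and Fah had no overlap between these groups, each lower at 1 month, and the other 3 overlapped. Of 9217 genes with a value on all these arrays, 64.7% had no overlap in either direction and 24.6% were lower at 1 month with none. Hpd changed by -0.42 (interval -1.66 to 0.81) and Fah by -0.51 (interval -1.53 to 0.51), so that neither could be told from no change or from a change of over 1 log2 unit. Tdo2 changed by -0.28 (interval -1.15 to 0.59) and Aldh8a1 by -0.04 (interval -0.55 to 0.48).

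Other genes of these routes did pass the test in this comparison. Afmid, the formamidase after Tdo2, was lower in 1-month BM-derived than in primary hepatocytes (-1.09, adjusted p = 0.0388, limma), as was Hgd, which lies between Hpd and Fah (-1.45, adjusted p = 0.0263, limma). Afmid was no longer called when any 1 of the 1-month, primary or 5-month arrays was left out, and Hgd when 1-month replicate 1 or either primary array was. Slc7a5, a subunit of the large neutral amino acid transporter, was higher at 1 month by 2.74 (adjusted p = 0.0111, limma, and 0.0509 without 1-month replicate 1). Of all 9223 genes, 1074 were called higher and 472 lower. Of 34 other amino acid breakdown enzymes, 1 was higher and 9 were lower. The largest were Sds, a serine dehydratase, at -3.89, Ahcy, of the methionine cycle, at -2.09, and Arg1, the arginase of the urea cycle, at -1.91. The call of Arg1 was lost without 1-month replicate 2 (adjusted p = 0.0579, limma).

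Between 5-month and 1-month BM-derived hepatocytes, none of the 6 enzymes was called, beside 17.1% of 9223 genes. The changes were small, from -0.18 for Hpd to 0.25 for Tat, with a median of -0.06 beside -0.15 for all genes, and in all 6 the groups overlapped, where 71.7% of 9220 genes had no overlap. The interval for Tat was -0.48 to 0.98 and that for Tdo2 -1.02 to 0.72. No gene of the tryptophan or the tyrosine list was called. Of all 9223 genes, 536 were called higher at 5 months and 1042 lower. Slc7a5 was lower at 5 months by 2.97 (adjusted p = 0.00931, limma), and 5 of 34 other amino acid breakdown enzymes were higher, led by Sds at 2.77. Sds was no longer called when any 1 of the BM-derived arrays was left out, and Slc7a5 without either 5-month array. Marker genes differed between these groups beside the members. Of 5 tested hepatocyte markers, 3 were called higher at 5 months, Apob by 1.17, Alb by 1.04 and Apoa1 by 1.02. Of 9 tested Kupffer cell and macrophage markers, Marco was higher by 3.35 and Csf1r at least 4.52-fold, and of 4 sinusoidal endothelium markers Kdr was lower by 1.16. All 6 of these calls were lost when any 1 of the BM-derived arrays was left out, and the part of these cell types in the members' levels was not tested.

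The number of called genes in these last 2 comparisons depends on single arrays, and it rose without some arrays and fell without others. The 1546 called between 1-month BM-derived and primary hepatocytes fell to 593 without 1-month replicate 2, 910 without 1-month replicate 1, 815 without primary replicate 2, and 997 and 986 without 5-month replicates 1 and 3, which enter the pooled spread. The 1578 called between 5-month and 1-month BM-derived hepatocytes fell to 347 and 453 without 5-month replicates 1 and 3, and to 834 and 511 without 1-month replicates 1 and 2. No member was called in any of these.

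Genes with a pattern most like that of a member over the 8 arrays are named here as a description, for the 4 members well above background on all of them. The measure is the root mean square difference in log2 signal over the shared probes after the mean of each gene over the arrays was subtracted, so that it compares patterns and not levels, and the members themselves were left out. Nearest to Tat were Apol7a (0.16), Inmt (0.19) and Ces1b (0.24). For Aldh8a1 they were 4732419C18Rik (0.25), Apon (0.26) and Prodh2 (0.27), which oxidizes hydroxyproline, and for Kynu Rtp3 (0.24), Fam149a (0.34) and Glt28d2 (0.36). Fah had Pbld1 (0.23), Abca6 (0.32) and Pbld2 (0.33).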

How the data were processed

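RNA of 4 groups of mouse cells (2 arrays each) was labelled with a single dye and hybridised by the authors to 2 Agilent array designs, 1 per slide, and quantified with Feature Extraction 11.5.1.1, per the file headers. The deposited intensity is the scanner software's processed signal, background-subtracted, with a mark for spots well above background. The authors also deposited log2 values shifted by the 75th percentile, which differed from the log2 intensity by 1 constant per array within 0.02 for 99.8% or more of the probes. These served as an alternative.

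Outlier spots (6 to 152 per array) were left out and the 75th percentile of each array was subtracted from the log2 intensity. Probes were kept where some group had both its arrays well above background, and the brightest probe stood for a gene. Groups on 1 slide were compared with all probes and 4 arrays. Across slides, where the designs share no probe name, the 13991 probes of identical sequence and all 8 arrays were used, with 1 pooled spread. Probe names were updated through RefSeq accessions (11821 of the shared sequences), symbols or synonyms (1037) or kept (1133). Tests were by limma 3.58.1 (R 4.3.3) adjusted by Benjamini-Hochberg over every gene in the fit. A gene not well above background on either array of the dimmer group has only a bound: the brighter group's mean over the lowest signal well above background, or the probe's own where higher. The code was tested on simulated data. Array number limits the precision of every value.

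The 9 members, the gene lists and the rule for named genes were chosen with earlier results of these data known. By that rule all members and both pathway lists are named, with the genes most like each member (given here for the 4 above background on every array), and at most the 3 largest called changes in each direction of the other lists. The phenylalanine and tyrosine list as first drawn up held 1 more gene, which is not reported here. Columns of other series numbered 0. Alternatives were another background correction (normexp, offset 50), quantile normalization, no filter, another probe set for the percentile, the mean of a gene's probes, the methods' t-test, the authors' processed values, and leaving out each array. No comparison across slides can be fitted with the slide as a term.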

Additional observations from a re-analysis of the deposited data

How the results depend on the processing

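Over all comparisons and alternatives, 608 of 641 values of single members kept their direction and their side of the threshold, 3 lost a call, 2 gained one and 28, none of them called, changed sign. No paired analysis was possible because the labels record no pairing between the groups. The count of called members was 5 with the methods' t-test after Benjamini-Hochberg adjustment for 1-month BM-derived hepatocytes against Lin- BM cells, 1 with that test unadjusted for 5-month BM-derived against primary hepatocytes, and 1 with normexp for 1-month BM-derived against primary hepatocytes. Without 1 array it ranged from 8 to 9 in the first, the ninth being Acmsd when tested on 1-month replicate 2 alone. It stayed at 6 to 6 for primary and for 5-month BM-derived hepatocytes against Lin- BM cells and at 0 to 0 in the 3 comparisons between hepatocytes.

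The number of called genes moved more. For 1-month BM-derived hepatocytes against Lin- BM cells it was 15719, and 26368 without the filter, 4560 with the adjusted t-test, 5782 with the shared probes of all arrays (where fewer genes were tested), and 9845 to 12482 without 1 array. For 5-month BM-derived against primary hepatocytes it was 110, and 38 without the filter, 1365 and 0 with the t-test unadjusted and adjusted, and 0 to 1397 without 1 array. Against Lin- BM cells the adjusted t-test gave 2505 in place of 6214 for primary and 3329 in place of 6186 for 5-month BM-derived hepatocytes, and leaving out 1 array gave 5655 to 6035 and 5023 to 6283. For 1-month BM-derived against primary hepatocytes the count was 1546, and 2434 with normexp, 4039 without the filter, 2 with the adjusted t-test and 593 to 1841 without 1 array. For 5-month against 1-month BM-derived hepatocytes it was 1578, and 2700 with normexp, 14 with the adjusted t-test and 347 to 1719 without 1 array. Beyond the filters and sample numbers named, the cause was not tested.

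Scaling across slides moved the median of all genes from -0.29 to 0.07 (normexp) and -0.05 (percentile over all probes) for primary hepatocytes against Lin- BM cells, from -0.30 to 0.09 and -0.10 for 5-month BM-derived hepatocytes against Lin- BM cells, from 0.18 to 0.31 and -0.09 for 1-month BM-derived against primary hepatocytes, and from -0.15 to -0.32 and 0.08 between the BM-derived groups. Of the genes called between 1-month BM-derived and primary hepatocytes, 1074 of 1546 were higher, and 679 of 1276 with quantile normalization and 751 of 1500 with the percentile over all probes. Between 5-month and 1-month BM-derived hepatocytes 536 of 1578 were higher, and 829 of 1578 with that percentile. Against Lin- BM cells at 1 month 8206 of 15719 were higher, and 10173 of 16189 with normexp.

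The changes of sign were all in values near 0. Between 5-month BM-derived and primary hepatocytes, the mean of the probes gave -0.07 for Kmo and -0.11 for Kynu, and leaving out 1 array gave Kmo -0.21 to 0.22, Kynu -0.16 to 0.64 and Aldh8a1 -0.16 to 0.06. Between 1-month BM-derived and primary hepatocytes, Aldh8a1 was 0.03 with normexp and -0.13 to 0.05 without 1 array, and Tdo2 -0.74 to 0.18. Between 5-month and 1-month BM-derived hepatocytes, normexp gave Aldh8a1 -0.06, Kynu 0.01 and Tdo2 0.04, quantile normalization gave Aldh8a1 -0.05 and Fah -0.02, and the percentile over all probes gave 0.05 for Hpd, 0.08 for Kynu and 0.08 for Tdo2. The authors' processed values gave 0.05, 0.09 and 0.08 for the same 3 genes. Without 1 array the ranges there were -0.01 to 0.06 for Aldh8a1, -0.19 to 0.33 for Fah, -0.37 to 0.00 for Hpd, -0.38 to 0.09 for Kynu and -0.61 to 0.31 for Tdo2. An alternative that tested every probe, chosen after seeing the data, changed no call of a member. Signals near background limit every value of Lin- BM cells.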
